A study of Mus musculus with 6 samples.

Results

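The genes described here are the receptors bound by RU486 (mifepristone) and 8 genes known to answer to glucocorticoids, 10 of the 24016 genes in the deposited table, chosen by name. All 10 had a row. The receptors are Nr3c1, the glucocorticoid receptor, and Pgr, the progesterone receptor. The response genes are Fkbp5, Tsc22d3, Sgk1, Zbtb16, Klf9, Per1, Cebpd and Cebpb.

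Steroid receptors are transcription factors that a chaperone complex holds ready for hormone. Once a hormone binds, the receptor moves to the nucleus and binds DNA at palindromic response elements. RU486 occupies both receptors and acts mainly as an antagonist. In stratified epithelia glucocorticoids are known for restraining growth and inflammation and for favouring differentiation.

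The study sequenced RNA of basal cells of the mouse esophageal epithelium, sorted into a pair of fractions. The Krt15-positive fraction held CD29high GFP+ cells (3 libraries), and the Krt15-negative fraction held CD29high GFP- cells (3 libraries). CD29 is integrin beta-1, a basal cell surface marker. Both fractions came from mice with Krt15-CrePR1 and the R26mTomato/mGFP reporter, given 1 mg of RU486 and sampled 24 h later. CrePR1 is a Cre recombinase joined to a progesterone receptor ligand-binding domain, so that RU486 switches it on, and the Krt15 promoter limits it to cells using that promoter. GFP thus marks recombination and not the level of Krt15, and unrecombined Krt15-expressing cells stay in the Krt15-negative fraction. Every library had seen RU486, and no library without the drug was analysed here. The sources used here give neither the age and number of the mice nor the hour of sampling. The values below are therefore levels under RU486 and the difference between the fractions, and a response to the drug could not be measured.

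Values are FPKM, fragments per kilobase of transcript, scaled to the number of mapped fragments, as the authors estimated them. Depth, estimated from the smallest steps in the values, was 27.5 to 34.1 M fragments in the Krt15-positive libraries and 29.2 to 41.7 M in the Krt15-negative ones. Krt15-negative replicate 1 stood apart, with 3247 genes at 1 FPKM or more, against 6906 to 9194 in the other 5 libraries. Of 16 genes that every cell uses, none was listed at 0 in the Krt15-positive libraries, while 3 were in Krt15-negative replicate 1 and 2 in replicate 2, so a listed 0 can be a failed estimate. All 11 basal keratinocyte markers, Krt5, Krt14 and Trp63 among them, were above 0 in every library. Suprabasal keratinocyte markers were abundant too, and their summed FPKM was above that of the basal markers in every library. It was 8944 to 53152 FPKM over the libraries, against 3916 to 14191 FPKM for the basal markers.

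The promoter sequences are shown first. They were searched only for exact matches to a receptor element next to an annotated start. Elements with other letters or further away were not sought. RefSeq windows on GRCm38.p6 were at hand for 7 of the 10 genes, 15 windows in all, and not for Nr3c1, Zbtb16 and Cebpd. Each covers the 250 bases before an annotated transcription start, 5′ to 3′ on the strand of the gene. Both strands were searched for the full glucocorticoid response element (AGAACA, any 3 bases, then TGTTCT), for its hexamer AGAACA alone and for the E-box CACGTG, the element bound by clock factors. Capitals mark any of these. The first sequence belongs to Sgk1, the second to Tsc22d3, the third to Fkbp5 and the fourth to Per1.
Sgk1, chr10:21993640-21993889, plus strand: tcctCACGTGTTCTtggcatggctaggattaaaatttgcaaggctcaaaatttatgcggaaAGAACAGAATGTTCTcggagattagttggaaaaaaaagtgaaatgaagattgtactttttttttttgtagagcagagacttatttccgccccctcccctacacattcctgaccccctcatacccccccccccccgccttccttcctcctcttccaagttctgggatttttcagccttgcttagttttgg
Tsc22d3, chrX:140600523-140600772, minus strand: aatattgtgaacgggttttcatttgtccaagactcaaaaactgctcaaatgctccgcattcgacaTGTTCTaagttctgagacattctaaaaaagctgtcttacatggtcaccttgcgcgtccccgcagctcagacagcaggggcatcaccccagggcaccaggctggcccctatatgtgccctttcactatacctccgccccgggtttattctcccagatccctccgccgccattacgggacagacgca
Fkbp5, chr17:28486150-28486399, minus strand: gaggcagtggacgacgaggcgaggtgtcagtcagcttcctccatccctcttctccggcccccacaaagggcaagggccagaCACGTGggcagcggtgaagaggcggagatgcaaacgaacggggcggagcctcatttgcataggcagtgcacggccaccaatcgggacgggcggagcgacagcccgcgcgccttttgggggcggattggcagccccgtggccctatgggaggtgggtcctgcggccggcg
Per1, chr11:69098699-69098948, plus strand: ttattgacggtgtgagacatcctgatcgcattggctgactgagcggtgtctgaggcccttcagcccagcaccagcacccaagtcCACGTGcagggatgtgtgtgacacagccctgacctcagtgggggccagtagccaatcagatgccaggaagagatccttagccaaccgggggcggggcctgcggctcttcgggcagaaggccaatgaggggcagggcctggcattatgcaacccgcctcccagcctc
The full element occurred in 1 of the 15 windows, that of Sgk1, as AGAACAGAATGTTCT beginning 189 bases before the start. Among all 32851 windows of the same length in the table, 3 held it (0.00913%). That Sgk1 window also holds an E-box 246 bases before the start, which overlaps a hexamer on the other strand at 242. RefSeq gives Sgk1 6 starts, and the gene-level FPKM cannot tell which of them was used. The Tsc22d3 window, 1 of 3 for this gene, holds a single hexamer 185 bases before the start, as do 16.1% of all windows at least once. Fkbp5 and Per1 hold an E-box each, 169 and 166 bases before the start, a motif in 6.02% of windows. No match says only that these letters are not in these 250 bases.

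Of the receptors, Nr3c1 was detected and Pgr was listed at 0. The Krt15-positive libraries had 1.71, 6.39 and 7.47 FPKM of Nr3c1, against 0.0053, 5.23 and 6.50 FPKM in Krt15-negative libraries. The mean was 5.19 ± 3.06 FPKM in Krt15-positive and 3.91 ± 3.44 FPKM in Krt15-negative libraries (SD, n = 3 each). Both replicate 1 libraries were the low ones, and the groups overlapped. With the estimated depth and a longest coding transcript of 6436 bp, the value in Krt15-negative replicate 1 corresponds to 1.00 fragment, against 303 in Krt15-positive replicate 1 and 1401 to 1656 in the other 4. Subtracting the Krt15-negative from the Krt15-positive mean gave a difference of 0.62 in log2(FPKM + 1) units (SE 1.21, limma adjusted p = 0.90), and every difference below is given in this way. Without Krt15-negative replicate 1 it was -0.30 (SE 1.04), and with quantile normalization -0.55.

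Pgr was listed at 0 in all 6 libraries. Since genes that every cell uses can be listed at 0 here too, this does not show that Pgr was absent. Esr1, an estrogen receptor, stood at 0.56 FPKM in Krt15-positive replicate 2 and was listed at 0 elsewhere. Nr3c2, the mineralocorticoid receptor, was listed at no more than 0.0087 FPKM, and Esr2 was listed at 0 throughout. None of these receptors, nor Pgr, had a listed value above that of Nr3c1 in any of the 6 libraries. Progesterone also has binding proteins outside the nuclear family, and of these Pgrmc1 was abundant, at 242, 213 and 187 FPKM in the Krt15-positive and 68.3, 221 and 197 FPKM in Krt15-negative libraries.

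**Figure D1:**
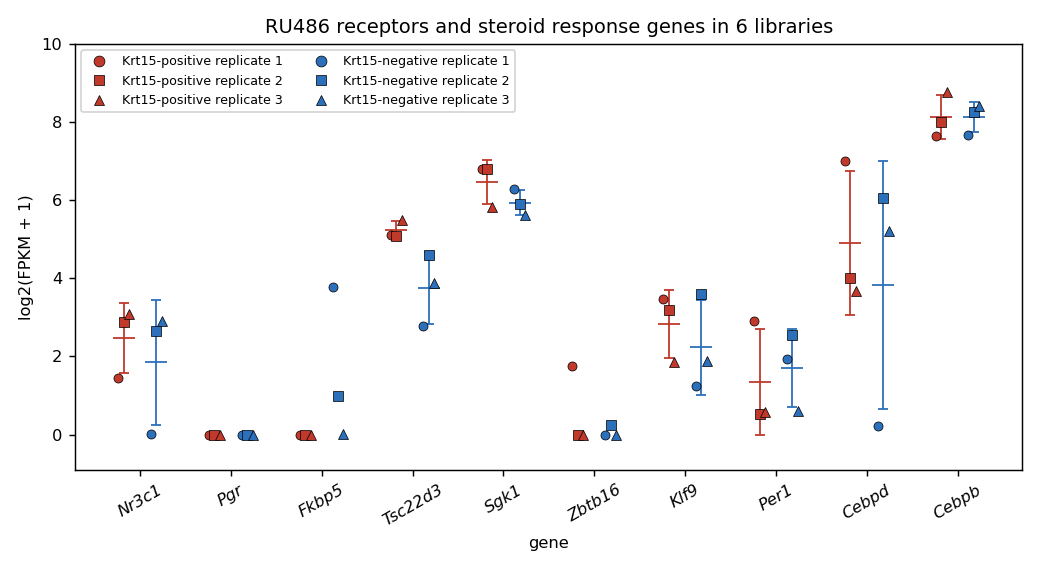
Level of each gene as log2(FPKM + 1) in the 3 Krt15-positive (red) and 3 Krt15-negative (blue) libraries, with marker shape for the replicate number. Bars give the mean and SD for genes above 0 in every library, Pgr lies at 0 in all 6 libraries, and for Tsc22d3 the 3 red points lie above the 3 blue ones.

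Fkbp5 and Tsc22d3, which are often used together as readouts of receptor activity, lay in opposite directions. Fkbp5 encodes FKBP51, a co-chaperone that lowers the receptor's hormone affinity. It was listed at 0 in all 3 Krt15-positive libraries, against 12.7, 0.99 and 0.0064 FPKM for Krt15-negative. The groups did not overlap, but the lowest Krt15-negative value corresponds to 0.98 fragments, and the 12.7 FPKM in replicate 1 to 1429. The difference was -1.59 (SE 1.02, 95% CI -3.82 to 0.64, limma adjusted p = 0.79), and -0.50 (SE 0.75) without Krt15-negative replicate 1. Since zeros enter it, its size depends on the pseudocount, being -3.51 with 0.1 and -0.69 with 5.

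Tsc22d3 encodes GILZ, a leucine-zipper protein that mediates anti-inflammatory effects of glucocorticoids. Its values were 33.7, 33.1 and 44.0 FPKM in Krt15-positive libraries, against 5.81, 23.0 and 13.8 FPKM in Krt15-negative libraries (mean 36.9 ± 6.14 for Krt15-positive and 14.2 ± 8.61 for Krt15-negative, SD, n = 3 each). Every Krt15-positive library was above every Krt15-negative one. The difference was 1.49 (SE 1.00, 95% CI -0.70 to 3.67, limma adjusted p = 0.79), so it did not pass the test, and an exact 2-sided permutation test gave p = 0.10, which is its floor with 3 libraries against 3. It stayed above 0 in all 14 alternative settings, between 0.99 and 1.90, the lowest being without Krt15-negative replicate 1. Relative to the median difference of all genes it lay between 0.36 and 1.196 in the fit and its alternatives.

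Of the 8 members in the fit, 1 (Tsc22d3) had Krt15-positive values all above the Krt15-negative ones, and 1 (Fkbp5) had them all below. The separation of Fkbp5 rests on listed zeros, which can be failed estimates. It passed the filter of a mean of 1 FPKM mainly through the 12.7 FPKM in Krt15-negative replicate 1. Among all 9423 genes tested, 8.85% were separated upward and 2.44% downward.

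Sgk1, the serum- and glucocorticoid-regulated kinase that phosphorylates ion-transport regulators, had the second-highest mean of the 10 genes. Its values were 109.6, 109.5 and 55.8 FPKM in Krt15-positive libraries, against 76.7, 58.9 and 48.5 FPKM in Krt15-negative libraries (mean 91.6 ± 31.1 for Krt15-positive and 61.3 ± 14.3 for Krt15-negative, SD, n = 3 each). Krt15-positive replicates 1 and 2 were above all others, while replicate 3 lay among the Krt15-negative values. The difference was 0.53 (SE 0.77, 95% CI -1.16 to 2.22, limma adjusted p = 0.86) and 0.70 without Krt15-negative replicate 1, but 0.04 with median-of-ratios and 0.07 with upper-quartile scaling. This is the gene whose promoter window carries the full response element shown above. Its relatives Sgk2 and Sgk3 were lower, with Sgk2 at no more than 0.012 FPKM and Sgk3 at 0.0063 to 10.98 FPKM over the 6 libraries.

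Zbtb16, Klf9 and Per1 encode transcriptional regulators and were scarce. Zbtb16 encodes PLZF, a zinc-finger factor strongly induced by glucocorticoids in several tissues. It stood at 2.39 FPKM in Krt15-positive replicate 1 and at 0 in the other Krt15-positive libraries, and at 0.18 FPKM in Krt15-negative replicate 2 and at 0 in the other Krt15-negative ones. With a mean of 0.43 FPKM it was left out of the fit (exact 2-sided permutation p = 1.0).

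Klf9, a Krüppel-like factor that glucocorticoids induce in human keratinocytes, stood at 10.03, 8.08 and 2.59 FPKM in the Krt15-positive libraries, against 1.35, 11.004 and 2.68 FPKM for Krt15-negative. It was low in both replicate 3 libraries and lowest in Krt15-negative replicate 1. Per1, a repressor of the circadian clock that is also a glucocorticoid target, stood at 6.49, 0.45 and 0.48 FPKM in Krt15-positive libraries, against 2.82, 4.85 and 0.52 FPKM in Krt15-negative libraries. Here Krt15-positive replicates 2 and 3 and Krt15-negative replicate 3 were low, and for both genes the groups overlapped. The differences were 0.60 for Klf9 (SE 1.17, limma adjusted p = 0.90) and -0.36 for Per1 (SE 1.10, limma adjusted p = 0.94), both within the spread between replicates. Without Krt15-negative replicate 1 they were 0.10 for Klf9 and -0.24 for Per1, and Klf9 turned to -0.35 with quantile normalization. Per1 turned to 0.043 without Krt15-positive replicate 2, 0.026 without Krt15-positive replicate 3 and 0.069 without Krt15-negative replicate 2.

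Cebpb and Cebpd encode leucine-zipper factors of the C/EBP family, which take part in keratinocyte differentiation and the acute phase. Cebpb was the most abundant of the 10 and had the smallest SE of those fitted, at 199, 254 and 432 FPKM in the Krt15-positive and 204, 307 and 340 FPKM in Krt15-negative libraries (mean 295 ± 122 for Krt15-positive and 284 ± 70.9 for Krt15-negative, SD, n = 3 each). Its difference was 0.01 (SE 0.55, 95% CI -1.19 to 1.22, limma adjusted p = 0.99), an interval that still admits a change of more than 1 log2 unit either way. It was -0.21 without Krt15-negative replicate 1 and -0.30 without Krt15-positive replicate 3.

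Cebpd varied far more, at 128, 15.2 and 11.7 FPKM in the Krt15-positive and 0.16, 66.1 and 36.1 FPKM in Krt15-negative libraries. The extremes were the replicate 1 libraries of the 2 fractions. The difference of 1.0704 (SE 1.57, limma adjusted p = 0.86) rested on them: it was -0.74 without Krt15-negative replicate 1 and 0.01 without Krt15-positive replicate 1. Exons of Cebpd overlap those of Spidr, and exons of Cebpb those of Tmem189, on the opposite strand in GENCODE M21. The kit does not mark strand, so reads of each pair cannot be told apart there.

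By mean FPKM the order was Cebpb, Sgk1, Cebpd, Tsc22d3, Klf9, Nr3c1, Per1, Fkbp5, Zbtb16 and Pgr. Cebpb exceeded Sgk1 in 6 of 6 libraries with ranges apart, and Tsc22d3 exceeded Klf9 in 6 of 6 libraries. The remaining neighbours overlapped, with the higher-ranked gene ahead in 4 of 6 libraries for Sgk1 over Cebpd, 3 for Cebpd over Tsc22d3, 4 for Klf9 over Nr3c1, 4 for Nr3c1 over Per1 and 5 for Per1 over Fkbp5. Fkbp5 over Zbtb16 (3 libraries) and Zbtb16 over Pgr (2 libraries) were limited by zeros.

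Ranks within a library do not depend on scaling between libraries. They do depend on how many genes the library detected. Krt15-negative replicate 1 had 3247 genes at 1 FPKM or more, against 6906 to 9194 in the others, so its counts are not directly comparable with theirs. Between 331 and 610 genes had a higher FPKM than Cebpb in the same library, and between 911 and 1753 than Sgk1. For Tsc22d3 the counts were 1911, 2528 and 1726 genes in the Krt15-positive and 2546, 3017 and 3312 genes in the Krt15-negative libraries, so its fractions stayed apart by rank. The narrowest gap, 2528 against 2546, is between Krt15-positive replicate 2 (33.1 FPKM) and Krt15-negative replicate 1 (5.81 FPKM). Its size cannot be read, because these libraries had 9194 and 3247 genes at 1 FPKM or more. For Nr3c1 the counts were 7656, 5839 and 4609 in the Krt15-positive and 6147, 5534 and 4589 in the Krt15-negative libraries, which overlapped. The 6147 in Krt15-negative replicate 1 belongs to a value of 1.00 fragment, and the 7656 in Krt15-positive replicate 1 to 303 fragments. In Krt15-negative replicate 1 Fkbp5 had 2159 genes above it, placing it there above Tsc22d3 (2546), whereas in the other 2 Krt15-negative libraries it had 6913 and 10661.

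**Figure D2:**
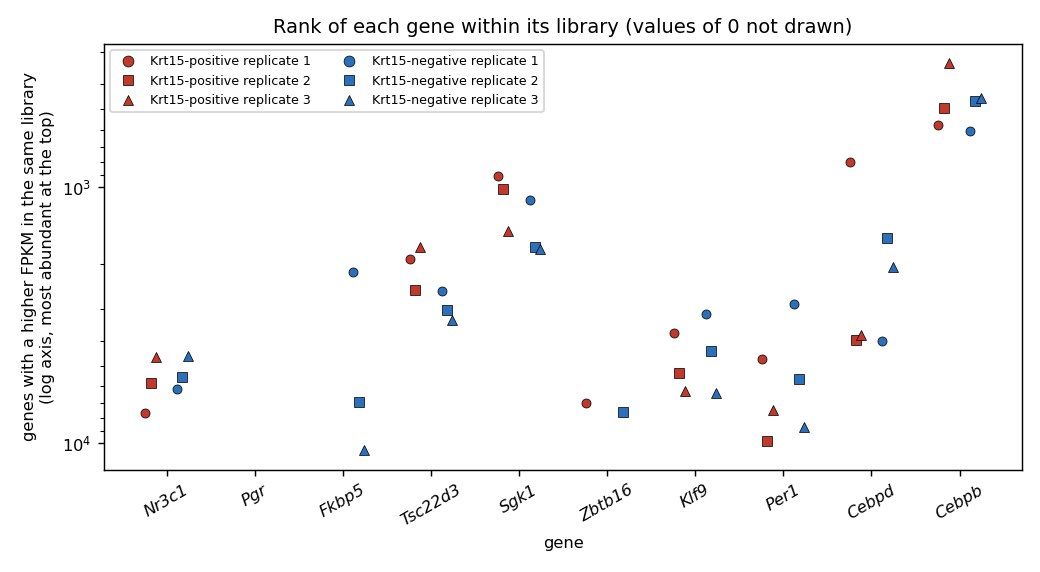
Number of genes with a higher FPKM in the same library (log axis, most abundant genes at the top) for each gene in the 3 Krt15-positive (red) and 3 Krt15-negative (blue) libraries. Values of 0 are not drawn. Cebpb lies at the top in every library, and Cebpd spans 802 to 3982.

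Single libraries stood out across the set. Krt15-positive replicate 1 had the highest value of Per1, Zbtb16, Sgk1 and Cebpd, and the most genes at 1 FPKM or more, 8 of the 10. Krt15-negative replicate 2 had the fewest listed at 0, with 1 of the 10. Krt15-positive replicate 3 had the highest Nr3c1, Tsc22d3 and Cebpb. Krt15-negative replicate 1 had the lowest value of 4 of the 10 genes and the highest Fkbp5.

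Across the whole table the comparison of Krt15-positive with Krt15-negative libraries called no gene, and none of the 10. At an adjusted p below 0.05, limma called 0 of 9423 genes (0%). Without adjustment 370 genes had p below 0.05 (3.93%), 300 of them (3.18%) higher and 70 (0.743%) lower in the Krt15-positive fraction, and none of the 8 fitted members was among them. Of those 8, 6 had a difference above 0, near the 68.6% of all genes tested. Their median difference was 0.56, against 0.63 over all genes. The same 68.6% and 0.63 are the background for the list counts and medians given below. Without Krt15-negative replicate 1, 3 of the 8 were above 0 and the median was -0.22, against 0.02 over all genes. Pgr and Zbtb16 did not pass the filter of a mean of 1 FPKM. The labels do not say whether each library is its own animal, so p-values reflect library-to-library spread, part of which may be technical.

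**Figure D3:**
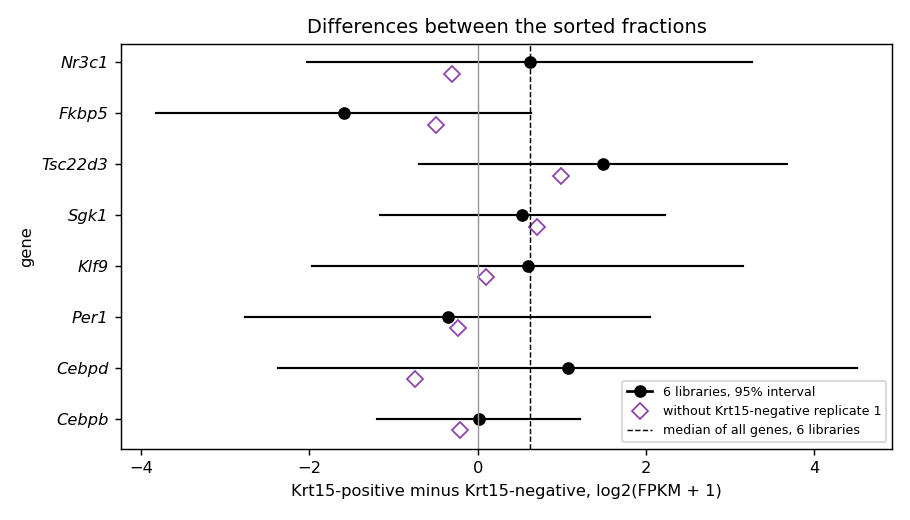
Difference, Krt15-positive minus Krt15-negative, on the log2(FPKM + 1) scale for the 8 genes in the fit, with the 95% interval of limma (black) and the value without Krt15-negative replicate 1 (open diamonds). The dashed line is the median of all 9423 genes, 0.63. All 8 intervals cross 0.

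The machinery around the receptor was plentiful. All 16 genes of the chaperone list had a mean above 1 FPKM. Of them, 14 had a difference above 0, against 68.6% of all genes tested, and none passed the test. Their median was 0.67, against 0.63 over all genes (0.21 without Krt15-negative replicate 1 and 1.12 without replicate 2 of that fraction). Hsp90ab1, the constitutive HSP90 that holds the receptor in its hormone-binding form, stood at 558, 498 and 452 FPKM in the Krt15-positive and 619, 511 and 307 FPKM in Krt15-negative libraries (difference 0.12, SE 0.45). Fkbp4, which encodes FKBP52, the co-chaperone that opposes Fkbp5's product at the receptor, was above Fkbp5 in every library, at 97.0, 164 and 105 FPKM in Krt15-positive against 35.9, 145 and 67.4 FPKM in Krt15-negative libraries (difference 0.74, SE 0.79, limma adjusted p = 0.81). The 2 chaperone genes of smallest p were Stip1, the HSP70-HSP90 adaptor (2.16, SE 1.42), and Ptges3, the p23 co-chaperone (1.86, SE 1.301), with limma adjusted p-values of 0.79 for both. Both were below 1 FPKM in Krt15-negative replicate 1 and above 30 in all the others.

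Receptor coregulators were low. Of 14, 12 were in the fit, 9 of them above 0 and none past the test. Their median was 0.71, but 1.09 without Krt15-negative replicate 3 and 0.11 with quantile normalization. Ncor1, a corepressor that antagonist-bound receptors recruit, had the highest mean, at 26.1, 27.2 and 54.8 FPKM in the Krt15-positive and 1.37, 57.5 and 23.5 FPKM in Krt15-negative libraries. Separated upward without overlap were Ncoa1, a p160 coactivator, and Smarca4, the BRG1 ATPase of chromatin remodelling, which had the smallest p of the list. Among all genes tested, 8.85% were separated upward and 2.44% downward. Ncoa1 stood at 2.11, 1.57 and 3.47 FPKM in Krt15-positive against 0, 0 and 1.06 FPKM in Krt15-negative libraries. Both genes had listed zeros in the Krt15-negative fraction, which can be failed estimates. Smarca4 stood at 3.54, 10.6 and 7.14 FPKM in Krt15-positive against 0, 1.03 and 2.98 FPKM in Krt15-negative libraries (difference 1.91, SE 1.09, limma adjusted p = 0.79). Crebbp, a histone acetyltransferase coactivator, was the one separated downward, at 2.19, 0.44 and 1.04 FPKM in Krt15-positive against 11.1, 4.19 and 4.01 FPKM in Krt15-negative libraries (difference -1.69, SE 1.05, limma adjusted p = 0.79).

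Genes for the synthesis, conversion and transport of steroids were mostly listed at 0, 8 to 12 of the 14 in each library. Of the 14, 5 were at 0 in all libraries, among them Hsd11b2, which inactivates glucocorticoids, and 4 were in the fit, with none past the test. Hsd11b1, which regenerates active glucocorticoid, stood at 47.6 FPKM in Krt15-negative replicate 2 and at 0 in the other 5. Akr1c18, a progesterone-inactivating enzyme in mouse, stood at 201 FPKM in Krt15-positive replicate 1 and 14.5 in Krt15-negative replicate 2, and at 0 in the rest. Tspo, a mitochondrial outer-membrane protein, was abundant everywhere, between 714 and 1245 FPKM.

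Further glucocorticoid response genes showed no common direction. Of 33, 23 were in the fit, 15 above 0 and 8 below, and none passed the test. Their median was 0.66, but leaving out Krt15-positive replicate 2 gave 0.36, leaving out Krt15-positive replicate 3 gave 0.37 and leaving out Krt15-negative replicate 1 gave 0.09. The metallothionein genes Mt1 and Mt2 were the most abundant, and Mt2 was lower without overlap, at 1845, 1764 and 1491 FPKM in the Krt15-positive and 3557, 2011 and 2078 FPKM in Krt15-negative libraries (difference -0.54, SE 0.29, limma adjusted p = 0.79). Dusp1, a MAP kinase phosphatase, had the smallest p of the list, at 768, 1086 and 1200 FPKM in Krt15-positive against 118, 696 and 852 FPKM in Krt15-negative libraries (difference 1.27, SE 0.66, limma adjusted p = 0.79), with 1 Krt15-negative value inside the Krt15-positive range. Foxo1, a forkhead factor, was separated upward, at 6.66, 4.04 and 13.2 FPKM in Krt15-positive against 0.018, 2.14 and 3.22 FPKM in Krt15-negative libraries (difference 1.78, SE 1.12, limma adjusted p = 0.79). Anxa1, annexin A1, an anti-inflammatory protein, stood at 1951, 1596 and 1783 FPKM in Krt15-positive against 777, 1810 and 2183 FPKM in Krt15-negative libraries.

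Inflammatory genes that glucocorticoids repress were low or patchy, with 8 of 16 in the fit, 4 above 0 and a median of -0.0044 (-0.63 without Krt15-negative replicate 1 and 0.62 without replicate 3 of that fraction). Icam1, a leukocyte adhesion molecule, was above 0 in every library, at 31.1, 58.7 and 39.5 FPKM in the Krt15-positive and 1.03, 63.0 and 6.24 FPKM in Krt15-negative libraries. Ccl2, a monocyte chemokine, stood at 14.99 FPKM in Krt15-positive replicate 2 and 119 in Krt15-negative replicate 2, and at 0 in the other 4.

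Progesterone response genes had few values above 0. Of 14, 7 were at 0 in all libraries and 5 were in the fit, 4 of them with a difference above 0 and none past the test. Their median was 1.33, but 0.40 over 4 genes without Krt15-positive replicate 1. Wnt4, a Wnt ligand, stood at 27.2, 58.5 and 54.7 FPKM in the Krt15-positive and 0.77, 49.9 and 44.4 FPKM in Krt15-negative libraries. Calca, the calcitonin gene, stood at 14.8 FPKM in Krt15-positive replicate 1 and at 0 in the other 5, and Nr2f2, an orphan nuclear receptor, at 17.7 FPKM in that library and at most 0.74 elsewhere.

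**Figure D4:**
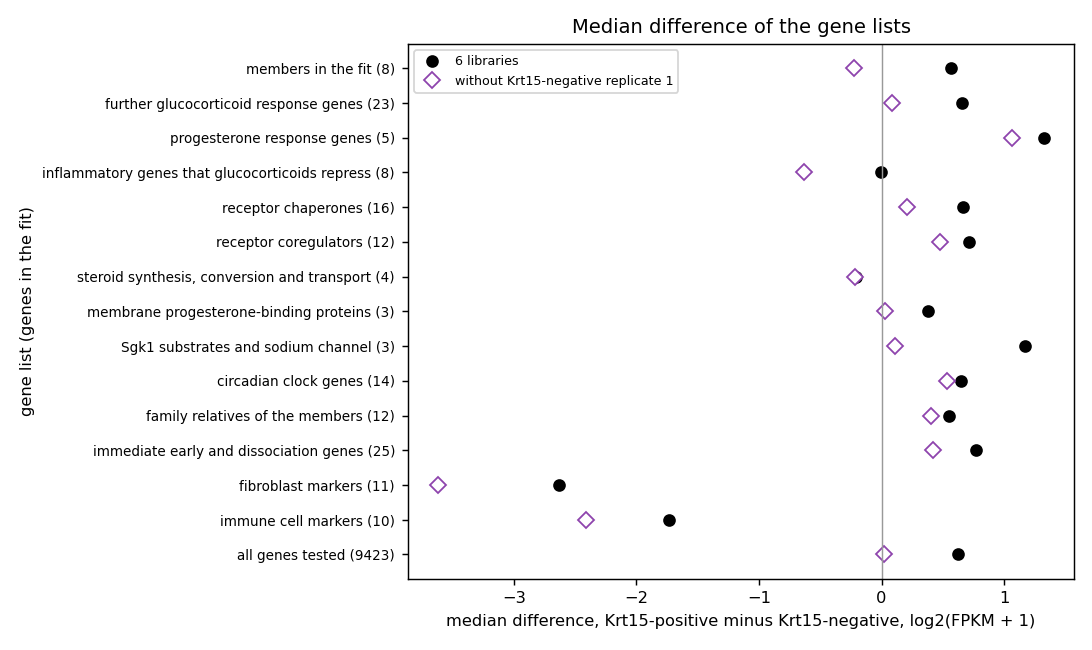
Median difference, Krt15-positive minus Krt15-negative, on the log2(FPKM + 1) scale for each gene list, over 6 libraries (black) and without Krt15-negative replicate 1 (open diamonds), with the number of genes in the fit in brackets. Only the fibroblast and immune marker lists lie below -1.

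The clock genes, the partners of Per1, had 14 of 18 in the fit, 13 above 0 (against 68.6% of all genes tested) and none past the test. Their median was 0.64 (0.53 without Krt15-negative replicate 1), against 0.63 over all genes. The median was 1.11 without Krt15-negative replicate 2, and with quantile normalization it was 0.06, with 8 of the 14 above 0. Nfil3, a clock-output repressor, had the smallest p, at 29.9, 20.6 and 14.7 FPKM in the Krt15-positive and 0.25, 0 and 10.8 FPKM in Krt15-negative libraries (difference 3.16, SE 1.26, limma adjusted p = 0.79). Nr1d1, the clock repressor REV-ERB alpha, overlapped, at 11.7, 31.8 and 2.93 FPKM in Krt15-positive against 6.33, 26.3 and 3.91 FPKM in Krt15-negative libraries. Bhlhe40, a clock repressor, had the highest mean of the list and a difference of 0.06 (SE 0.96).

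Among the relatives of the response genes, Tsc22d1 was more abundant than Tsc22d3 in every library, at 1046, 567 and 272 FPKM in the Krt15-positive and 111, 718 and 198 FPKM in Krt15-negative libraries, with overlap (difference 1.11, SE 0.73). Klf5, a factor of basal keratinocytes, stood at 217, 361 and 303 FPKM in Krt15-positive against 30.8, 232 and 164 FPKM in Krt15-negative libraries (difference 1.43, SE 0.79, limma adjusted p = 0.79). Cebpa, the differentiation-linked relative of Cebpb, did not exceed 1.87 FPKM. Of the 16 relatives, 12 were in the fit, 9 of them above 0 and none past the test. Their median was 0.55, but 1.04 without Krt15-negative replicate 2 and 0.0059 with quantile normalization, where 6 of the 12 were above 0. Among Sgk1 substrates and channel genes 3 of 8 were in the fit, and the sodium channel genes Scnn1a, Scnn1b and Scnn1g did not exceed 0.55 FPKM.

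Immediate early and dissociation genes are named because Sgk1, Per1, Cebpb and Cebpd also respond to stress. All 25 were above 0 in all 6 libraries and in the fit. Of them, 23 had a difference above 0, against 68.6% of all genes tested, and none passed the test. Their median was 0.77, against 0.63 over all genes. Leaving out Krt15-positive replicate 2 or Krt15-negative replicate 1 gave 0.42, and leaving out Krt15-negative replicate 2 gave 1.33. Fos, a subunit of AP-1, stood at 993, 1373 and 1285 FPKM in the Krt15-positive and 713, 981 and 761 FPKM in Krt15-negative libraries (difference 0.57, SE 0.33, limma adjusted p = 0.79). The summed FPKM of the list was 6263 to 12841 in the Krt15-positive and 3181 to 10308 in the Krt15-negative libraries. Its part in the levels of the 10 genes was not tested.

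Markers of cell types lay in both directions, with none past the adjusted threshold. Of the 11 basal keratinocyte markers 10 had a difference above 0, against 68.6% of all genes tested. Their median was 1.10 (0.34 without Krt15-negative replicate 1), against 0.63 over all genes. The 3 of highest mean hardly differed, with 0.18 for Krt15 (SE 0.48), 0.02 for Krt14 (SE 0.47) and 0.05 for Krt5 (SE 0.57). Trp63 differed by 2.11 (SE 1.32), and stood at 0.46 FPKM in Krt15-negative replicate 1 against 30.8 and 39.3 FPKM in replicates 2 and 3 of that fraction. Of 9 fitted suprabasal markers 6 were above 0, with a median of 0.26 (-0.58 without Krt15-negative replicate 1). Among them Krtdap, a differentiation-associated keratinocyte protein, stood at 7254, 13640 and 41287 FPKM in Krt15-positive against 33634, 22532 and 0 FPKM in Krt15-negative libraries. Fibroblast markers in the fit, apart from Dcn, lay opposite in direction to Tsc22d3 and alike in direction to Fkbp5. Of 12 fibroblast markers, 9 were lower in Krt15-positive libraries without overlap. The summed FPKM of the 12 was 164 to 320 in the Krt15-positive and 716 to 1226 in the Krt15-negative libraries. Dcn, the marker of highest mean, overlapped (difference 0.07, SE 1.14). It stood at 167, 176 and 71.1 FPKM in Krt15-positive against 13.9, 267 and 457 FPKM in Krt15-negative libraries. Of the 12, the Krt15-positive libraries had 9, 8 and 5 at 0, against 1, 2 and 0 in the Krt15-negative libraries, and Col1a2 was at 0 in all 3 Krt15-positive libraries. The immune list summed to 146 to 7317 FPKM in the Krt15-positive and 606 to 1035 FPKM in the Krt15-negative libraries, the 7317 being Krt15-positive replicate 1, where Lyz2 alone stood at 7279. By gene, 8 of 10 fitted immune markers were lower in Krt15-positive libraries, with a median of -1.74 (-0.54 without Krt15-negative replicate 2), and Tyrobp and Coro1a were lower without overlap. Endothelial, muscle and melanocyte or glial markers summed to at most 4.51, 10.5 and 1.74 FPKM. The part of other cells in the levels of Fkbp5, Tsc22d3, Klf9, Cebpd and Zbtb16 was not tested, and in bulk libraries fewer cells of a type and less RNA per cell cannot be told apart.

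By Pearson correlation of log2(FPKM + 1) over the 6 libraries, the 3 genes most like Nr3c1 were Araf, a RAF kinase (r = 0.997), Fam57a (r = 0.995) and Klk8, a kallikrein protease (r = 0.993). All 3 shared its low values in both replicate 1 libraries. Those most like Cebpb, the member of highest mean, were Asxl1, a chromatin regulator (r = 0.968), Rnaseh2c, a ribonuclease H2 subunit (r = 0.965), and Pbxip1 (r = 0.963). These are the nearest of 9422 genes over 6 libraries that share the sort, and they describe a pattern only. Among the members in the fit, the pair most alike was Nr3c1 with Cebpb (r = 0.79), closely followed by Klf9 with Cebpd (r = 0.78), and Fkbp5 ran against Tsc22d3 (r = -0.84) and Nr3c1 (r = -0.84).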

How the data were processed

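RNA of 6 sorted libraries was profiled from cDNA made directly from cells with a SMART-Seq v4 kit, per the labels' protocols. The deposited values are FPKM per gene and library, estimated by the authors. The submitters' processing notes list STAR 2.5, Cufflinks 2.2.1 and DESeq2 as tools and mm9 as the genome build, without saying what each did. The sources used here name no annotation or filter. The table calls its values counts, but they are not whole and their smallest steps shrink with transcript length. Of 24043 rows, 27 whose symbols had become dates were left out.

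Values were analysed as log2(FPKM + 1), which understates changes of low genes. The 9423 genes averaging 1 FPKM or more entered a limma fit (version 3.58.1, R 4.3.3) with the variance trend on and group as the only term. Benjamini-Hochberg adjustment ran over all of them, and an adjusted p below 0.05 was a call. Depth was taken from the step of a single fragment among 2172 genes with 1 transcript of at least 1500 bp, and fragments are not independent molecules, so no counting interval is given. Fragments per gene use the longest coding transcript in GENCODE M21. Exact 2-sided permutation tests used scipy 1.17.1. The fit was tested on simulated data.

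The 10 genes and the 20 lists around them were chosen with earlier results of these data known. All 10 genes are named. From each list, names come from the 3 genes of highest mean and the 2 of smallest p, and for Nr3c1 and the most abundant member from the 3 genes most like it. Sgk2, Sgk3, Esr2, Hsd11b2, Cebpa, the sodium channel genes, Foxo1, Ncoa1, Coro1a and Col1a2 were named after their values were seen.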

Additional observations from a re-analysis of the deposited data

How the results depend on the processing

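The count of genes past the threshold, the members' differences with their median and the number above 0, and the list medians were recomputed under 14 alternative settings: another pseudocount, filter or scaling, the replicate number as a block, and each library left out in turn. The number of genes past the limma threshold was 0 in all of them, with 123 to 585 genes at an unadjusted p below 0.05. With quantile normalization 3 of the 8 members had a difference above 0, with a median of -0.26, and the difference turned to -0.55 for Nr3c1, -0.35 for Klf9 and -0.18 for Cebpd. Cebpb turned to -0.48 with median-of-ratios and -0.45 with upper-quartile scaling. Leaving out single libraries moved the number above 0 between 3 and 7, the median between -0.22 and 0.76, and the differences between -0.30 and 1.15 for Nr3c1, -1.14 and 0.069 for Per1, -0.74 and 2.19 for Cebpd and -0.30 and 0.25 for Cebpb. Nr3c1, Cebpd and Cebpb turned without Krt15-negative replicate 1. Fkbp5, Tsc22d3 and Sgk1 kept their direction throughout. For Fkbp5 this says little, since it was listed at 0 in every Krt15-positive library and its difference had hardly any room to turn. With a mean of at least 5 FPKM, Nr3c1, Fkbp5 and Per1 had no value. The cause of these shifts was not tested.

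Over all genes the median of 0.63 became 0.40 under median-of-ratios, 0.48 under upper-quartile and 0.04 under quantile scaling. The last of these also gave 121 genes higher and 178 lower at an unadjusted p below 0.05. With the replicate block the number past the threshold was again 0, with 337 higher and 142 lower at an unadjusted p below 0.05. The deviations of same-numbered libraries correlated at 0.13, 0.17 and 0.0089. Those of replicates 1 and 2 were the highest of all pairs across the fractions. Krt15-positive replicate 3 correlated best with Krt15-negative replicate 1 (0.018), hardly more than with replicate 3. Correlations this low cannot decide whether the numbers pair the libraries, and the main fit treated the libraries as unpaired. The sample names do share a code across the fractions at each number, and the labels do not say what it marks. Between same-numbered libraries 1, 2 and 3 the difference was 1.43, 0.25 and 0.18 for Nr3c1, 2.35, 0.51 and 1.60 for Tsc22d3 and 0.51, 0.88 and 0.20 for Sgk1.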
